A study of Mus musculus with 14 samples.

Results

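Splicing factors and RNA-binding proteins were taken as the genes whose symbol begins with Srsf, Hnrnp, Snrp, Snrnp, Sf3a, Sf3b, Prpf or U2af, or with Rbm followed by a digit. This rule found 95 of the 9558 gene rows, each with its own gene ID, and used no measured value. The families held 28 Rbm genes, 19 Hnrnp genes, 12 Snrp genes, 10 Prpf genes, 9 Srsf genes, 8 Sf3 genes, 6 Snrnp genes and 3 U2af genes. In the GENCODE M21 annotation (GRCm38) 114 protein-coding genes have such symbols, and 94 of them had a row. The other 20, among them Snrpn, Sf3a1, Prpf31, Prpf4, Srsf4, Hnrnpul2 and Rbm4, were not analysed here. The remaining member, Snrpert, is annotated as a processed pseudogene.

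The RNA came from 14 single cells of adult C57BL/6 mice of the genotype Prrx1-CreERT;Tomato, all given 2 mg of tamoxifen per 30 g of body weight daily for 3 days. In these mice a tamoxifen-dependent Cre is expressed from the Prrx1 promoter, a promoter of limb mesenchyme, and switches on a red reporter. Red cells were sorted from collagenase-digested tibia, radius and ulna whose marrow had been flushed, and were picked singly. No animal is named in the labels and there is no other condition, so the 14 cells are 1 sample: SDs describe the spread between these cells, and no test between samples was possible.

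Most mammalian genes are interrupted by introns, which the spliceosome removes. The U1 particle pairs with the start of the intron, U2AF and then the U2 particle with its SF3 subunits bind near its end, and the tri-snRNP of U4, U6 and U5 brings in the catalytic core. The Sm proteins form a ring around the small nuclear RNA of these particles. SR proteins bind exons and mostly favour their inclusion, and hnRNP proteins coat the transcript and often oppose it. Most of these genes are active in nearly every cell type.

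Levels are log2 quantile-normalized FPKM, read as log2(FPKM + 1), and a gene is called detected in a cell at 1 or more, an FPKM of 1. FPKM divides by transcript length, although the libraries were made with a 3′ kit, so short transcripts are overstated against long ones. Every cell had 5066 detected rows, because normalization gave the cells the same distribution, and sequencing depth is unknown. The mesenchymal markers fixed for this work (11 genes, among them Dcn, Col1a1 and Pdgfra) all reached 1 in 7 or more cells, and Prrx1 itself was below 1 in cells 2, 12 and 14. Cells 11 and 14 stood apart by leukocyte markers. The mean of the 7 leukocyte markers was 9.92 in cell 14 and 9.65 in cell 11, whereas the other cells lay between 2.06 and 6.95. Blood cell transcripts were not confined to cells 11 and 14: the neutrophil markers Camp and Retnlg were lowest in cell 4, at 6.44 and 5.47. Cell 6 had the highest neutrophil marker mean, at 10.74, beside 8.93 in cells 11 and 14. It led through Mpo, at 11.25, and Elane, at 8.12, whereas in cells 11 and 14 Mpo was below 1 and Elane at 0. The neutrophil markers Camp, Ngp, Retnlg and Lcn2 were higher in cells 11 and 14 than in cell 6, and Ltf was higher in cell 14 and lower in cell 11. A lower value of a gene cannot be told apart from a larger share of other RNA in that cell, since each level is a place in the order of genes of that cell.

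Snrpe encodes an Sm protein of the ring, and Snrpert is a processed pseudogene related to it. The level of Snrpert followed that of Snrpe over the cells. Snrpe had a lowest level of 3.40 in cell 8, a median of 8.78 and a highest level of 10.31 in cell 7. Snrpert was at 0 in cells 1, 6, 8 and 11, had a median of 4.80 and reached its highest level of 6.64 in the same cell 7. Snrpe was higher than Snrpert in all 14 cells, by a median of 3.64 log2 units (range 2.48 to 7.47). Over the cells, which share 1 normalization, the Spearman correlation of the 2 rows was 0.94 and the Pearson correlation 0.90. Cell 6 had Snrpe at 7.47 and Snrpert at 0. The sources used here do not say how reads matching both loci were assigned, so reads common to the 2 rows cannot be told apart and the level of each is uncertain.

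Rbm8a and Rbm8a2 showed the same order. Rbm8a, at chr3:96629933-96633791 on the plus strand, encodes Y14, a core protein of the exon junction complex that marks spliced junctions. Rbm8a2, at chr1:175977777-175979114 (GRCm38) on the minus strand, is a protein-coding gene in GENCODE M21 and a pseudogene in RefSeq. Of 1119 aligned bases 82.1% were identical between the transcripts, with a longest identical run of 136 bases. Rbm8a ranged from 1.81 in cell 9 to 9.97 in cell 3 with a median of 7.29, whereas Rbm8a2 ranged from 0.30 in cell 6 to 5.88 in cell 11 with a median of 2.76. Rbm8a was the higher row in all 14 cells, and the Spearman correlation between the rows was 0.90. How reads matching both loci were assigned is likewise unstated for this pair, so the level of each row is uncertain. Cells 1, 6 and 9 were the lowest 3 cells for both rows.

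**Figure D1:**
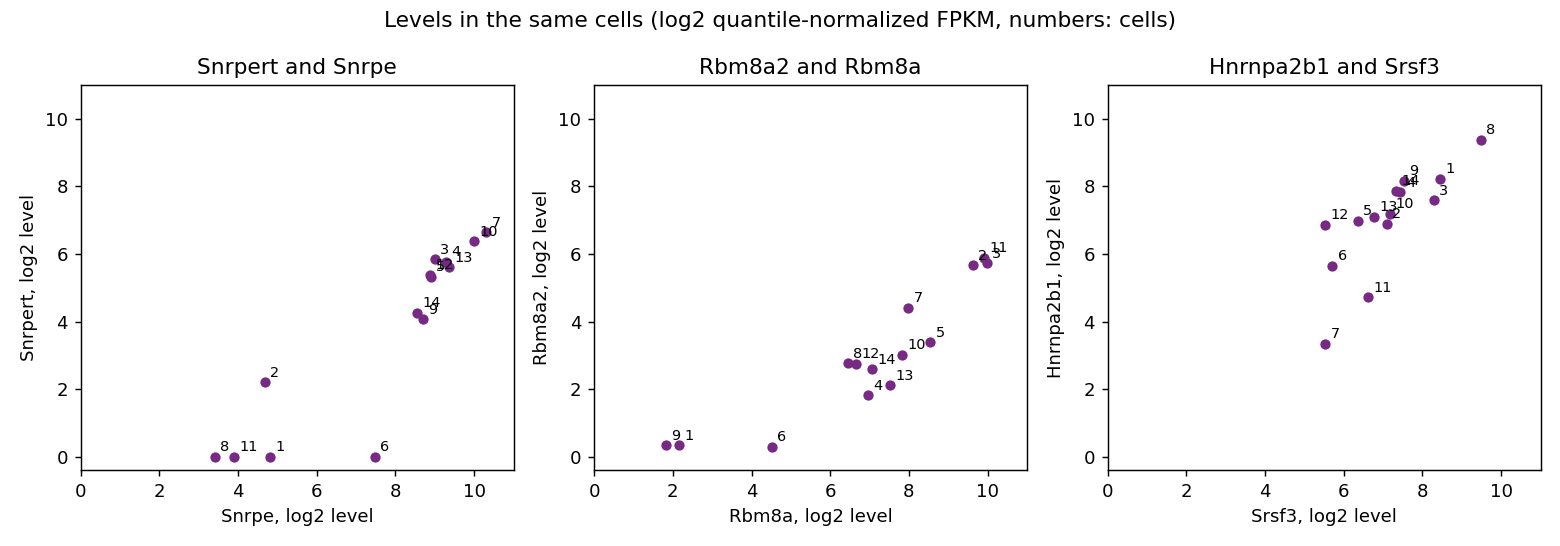
Level of Snrpert against Snrpe (left), Rbm8a2 against Rbm8a (middle) and Hnrnpa2b1 against Srsf3 (right); both axes are log2 quantile-normalized FPKM and each numbered point is 1 cell. Snrpert lies at 0 in cells 1, 6, 8 and 11 and between 2.21 and 6.64 in the others.

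As a set, splicing factor genes were widely detected and stood at higher levels than most rows. Of the 95 members, 72 (75.8%) reached the detection level in at least 7 cells, beside 51.7% of all rows, and 28 (29.5%) did so in every cell, beside 15.8% of all rows. A further 18 members were detected in 3 to 6 cells and 5 in fewer than 3. Some families were near the 51.7% of all rows in at least 7 cells: 16 of 28 Rbm, 5 of 10 Prpf and 3 of 6 Snrnp genes. The median of the members' mean levels was 3.05, beside 1.70 over all rows, and 75 members lay above the median row. The means of 25 members lay at or above the 90th percentile of all rows. The count detected in all 14 cells rested on the detection level, since it was 62 (65.3%, beside 46% of rows) for any value above 0, 14 (14.7%, beside 6.21% of rows) at an FPKM of 5 and 6 (6.32%, beside 4.24% of rows) at an FPKM of 10. The count for at least 7 cells was 91 (95.8%, beside 86.8% of rows), 52 (54.7%, beside 28.7% of rows) and 41 (43.2%, beside 21.5% of rows) at the same 3 settings. No test sets these shares apart, since the cells are 1 sample.

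**Figure D2:**
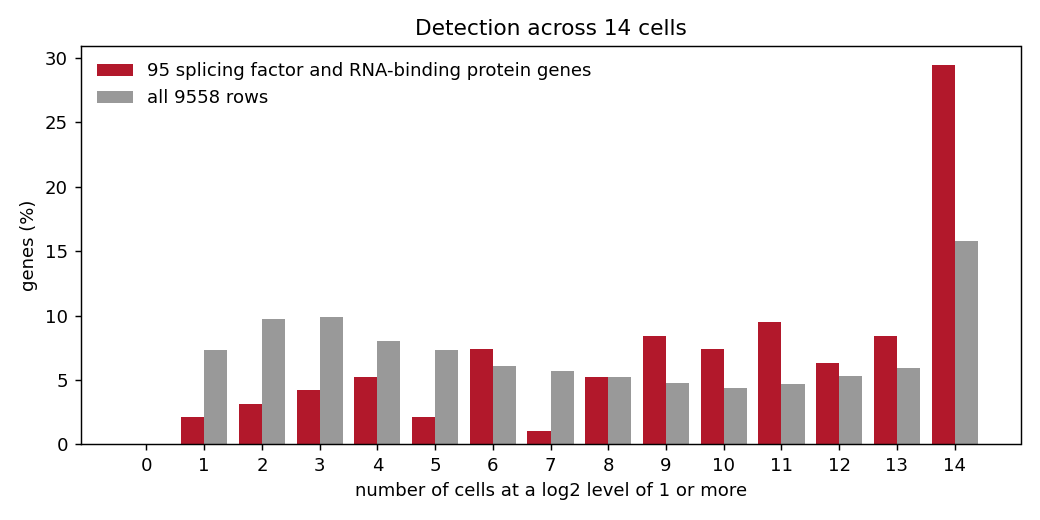
Share of genes (vertical axis, in %) by the number of cells in which they were detected at a log2 level of 1 or more (horizontal axis), for the 95 splicing factor and RNA-binding protein genes (red) and all 9558 rows (grey). The bar at 14 cells holds 29.5% of the members and 15.8% of all rows.

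Even widely detected members varied between cells. The median SD of a member over the cells was 1.90 log2 units, beside 1.75 for all rows, and among rows detected in all 14 cells it was 1.79 for members and 1.85 for all. In 71 of 95 members (74.7%) the highest and lowest cells were at least 5 log2 units apart, beside 65.1% of all rows. Among the 28 members detected in all 14 cells, the smallest SDs were those of Snrpg, a Sm ring protein gene (SD 0.75), Rbm3 (SD 1.01), Rbm39 (SD 1.12), Srsf3 (SD 1.14), Snrpb (SD 1.15) and Hnrnpa3 (SD 1.28). Snrpg had a mean of 8.99, was lowest in cell 14 at 7.94 and was highest in cell 12. None of the 6 fell below 2.17, the level of Hnrnpa3 in cell 2.

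The member with the highest mean was Rbm39, which encodes a splicing coactivator related to U2AF. The gene lies on the minus strand at chr2:156147239-156180238. Its lowest level was 7.52 in cell 4, its median 9.55 and its highest level 11.92 in cell 6, with a mean of 9.57 ± 1.12 (SD, 14 cells). It was at 7.97 in cell 5, and cells 4 and 5 were thus the lowest cells for this gene. Rbm3, the gene of a cold-inducible RNA-binding protein, came next among the Rbm genes, with 6.76 in cell 7, a median of 8.08 and 10.02 in cell 3. Its cold-inducible relative Cirbp, which the symbol rule does not cover, had a median of 3.03. Cirbp was highest in cell 7, at 7.68, where Rbm3 was lowest, and next highest in cell 3, at 7.07, where Rbm3 was highest. Rbm25, a regulator of alternative splicing, ran from 3.86 in cell 11 to 9.15 in cell 7 with a median of 6.51.

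**Figure D3:**
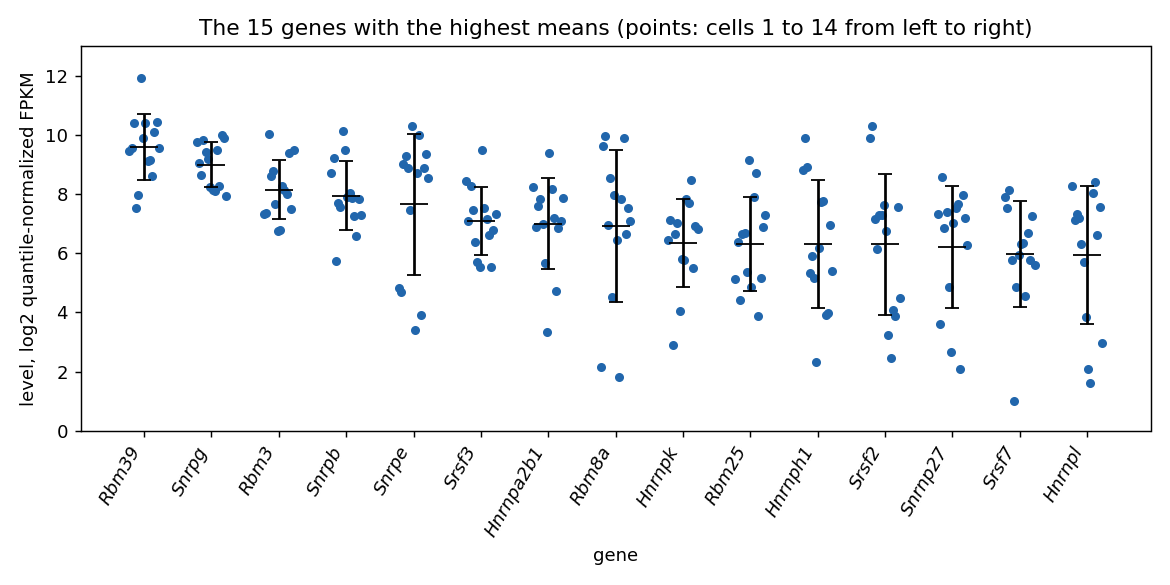
Levels of the 15 members with the highest means (horizontal axis) in log2 quantile-normalized FPKM (vertical axis); points are cells 1 to 14 from left to right within a gene, the bar is the mean and the whiskers are 1 SD over the 14 cells. Rbm39 and Snrpg stay above 7 in every cell, whereas Snrpe, Rbm8a and Srsf2 spread over several log2 units.

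The Sm ring was detected in full in nearly every cell. Its 7 genes, Snrpb, Snrpd1, Snrpd2, Snrpd3, Snrpe, Snrpf and Snrpg, were all detected in 13 of 14 cells, and cell 7 lacked only Snrpd3, at 0.47. At an FPKM of 5 or more the complete set was left in 5 cells (1, 4, 5, 8 and 12). The 2 U2 genes Snrpa1 and Snrpb2 were both detected in 12 cells, and at an FPKM of 5 or more in 8, so the order of the complexes changed with the detection level. The ring genes differed in level although each ring holds 1 copy of each protein. Snrpg had a median of 9.10, while Snrpd3 had a median of 2.81 and a range of 0.47 to 6.73. Snrpb, at chr2:130171414-130179403, ran from 5.73 in cell 3 to 10.13 in cell 6 with a median of 7.84. Snrpf ran from 1.30 in cell 11 to 8.38 in cell 7 with a median of 6.86. Cells 11 and 14 were the lowest 2 cells for Snrpf, at 1.30 and 1.49. Undoing the division by length left Snrpg among the highest members, at place 3, and moved Snrpe to place 18, against place 5.

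Genes of the U1 particle were less often detected together. The 3 U1 proteins have the genes Snrnp70, Snrpa and Snrpc, and all 3 were detected in 7 cells. Snrpa was at 0 in cells 3, 11 and 12 and reached 7.49 in cell 2. Snrnp70 had a median of 1.42 and reached 6.10 in cell 11. Of the U2 proteins, Snrpa1 had a median of 3.10 and was detected in every cell, and Snrpb2 had a median of 3.45 and was detected in 12. Snrpa and its relative Snrpb2, which bind different small nuclear RNAs, were both detected in 9 cells, and Snrpa was the higher of the pair in 6 cells and the lower in 8. The particle genes of the minor spliceosome, Snrnp25 and Snrnp48, were detected in 6 cells each and together in cells 2, 4 and 6. Snrnp25 was at 0 in 8 cells and had its highest levels in cell 11 (7.96), cell 13 (6.17) and cell 12 (5.67).

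The SF3 subunits, which hold the U2 particle at the branch site, had a median of means of 3.38. The 6 SF3B genes taken by the symbol rule were detected together in 3 cells, numbers 4, 5 and 9, and both measured SF3A genes in cell 9 alone. SF3B genes with other symbols were not counted here. Sf3b6 had the highest mean of the family, with 3.00 in cell 3, a median of 6.55 and 8.28 in cell 14. Sf3b1, the largest subunit and the one in contact with the branch site, was detected in all 14 cells, from 1.38 in cell 9 to 7.47 in cell 3 with a median of 5.48. Sf3b3 reached the detection level in 3 cells, with 4.16 in cell 9. Sf3a3 was high in some cells and low in the rest: it was between 6.03 and 6.86 in cells 2, 4, 7, 8 and 9, at 4.34 in cell 5 and at most 2.35 elsewhere. Sf3a2 overlaps the exons of Plekhj1 on the opposite strand by 429 bases, and the sources used here give no strand setting for the counting, so its reads and those of Plekhj1 may not be told apart.

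The small U2AF subunit gene was higher than the large one. U2af1, whose protein reads the end of the intron, ran from 0 in cell 3 to 8.71 in cell 2 with a median of 4.92. U2af2, whose protein binds the pyrimidine tract before it, ran from 0 in cells 3 and 12 to 5.51 in cell 2 with a median of 1.59. U2af1 exceeded U2af2 in 13 cells, and the median of the difference was 2.92, and both rows were at 0 in cell 3. Both were detected in 9 cells. U2af1l4, a relative of U2af1, had the largest SD (3.07) of the members detected in 5 to 9 cells: it was at 0 in cells 6, 7 and 14 and highest in cell 12 (8.18), cell 13 (7.81) and cell 5 (7.11). The exons of U2af1l4 share 861 bases with a gene model on the same strand, Gm49396, so its level is uncertain.

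Tri-snRNP genes were less completely detected than the Sm ring at the same FPKM, a measure that overstates short transcripts. The longest transcripts of Prpf8 and Snrnp200 have 7442 and 6745 bases, beside 669 for Snrpe and 1055 for Snrpg. In the other direction, that of Snrnp27 has 1005 bases and that of Snrpd3 has 3036. The part of length in this difference was not tested. No cell had all 6 tri-snRNP genes counted here, each taken by the symbol rule, at the detection level. Tri-snRNP genes with other symbols were left out of this count. Snrnp27 was detected in all 14 cells, from 2.10 in cell 11 to 8.57 in cell 3 with a median of 7.10. In contrast, Prpf8, the gene of the scaffold of the catalytic core, had a median of 0.41, reached the detection level in 6 cells and peaked at 4.68 in cell 7. Snrnp200, the gene of the helicase that unwinds U4 from U6, had a median of 2.08 and was detected in 10 cells. Prpf6, which bridges the particles of the tri-snRNP, was at 8.98 in cell 1 and at or below 3.82 in the other 13. Of the 10 Prpf genes 5 reached the detection level in at least 7 cells, near the 51.7% of all rows, and 0 did so in every cell, beside 15.8% of all rows. The median of the means of the Prpf genes was 1.89, beside 1.70 over all rows and 1.80 over the Rbm genes. Prpf38b was highest in cells 2 (7.19) and 9 (6.49) with a median of 1.25, and its relative Prpf38a was lower in 12 cells and reached 6.37 in the same cell 9. Prpf19, which encodes a ubiquitin ligase of the activated spliceosome, was detected in cells 4 (2.41) and 8 (2.81) alone.

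Each of the 9 SR protein genes was detected in at least 7 cells, beside 51.7% of all rows. Among them, Srsf2, Srsf3, Srsf5, Srsf7 and Srsf11 were detected in all 14, beside 15.8% of all rows. Srsf3, the shortest SR protein, lies at chr17:29032628-29043373 on the plus strand and ran from 5.52 in cell 12 to 9.48 in cell 8 with a median of 7.13. Srsf2, on the minus strand at chr11:116849901-116853094, ran from 2.44 in cell 10 to 10.30 in cell 2 with a median of 6.95. Cells 1 and 2, at 9.90 and 10.30, stood more than 2 log2 units above the next cell for Srsf2. Srsf7, the relative of Srsf3 with a zinc knuckle, was at 1.01 in cell 5, 6.14 in the median and 8.14 in cell 3. Srsf3 exceeded Srsf7 in 9 cells. Srsf5 exceeded Srsf6 in 12 cells, by a median of 2.64. Srsf1, the founding SR protein gene, had a median of 1.81, was at 0 in cell 8 and reached 7.30 in cell 3. Its relative Srsf9 was at 0 in cells 2, 6, 7 and 14 and highest in cell 11, at 6.65, and the 2 genes were detected together in 6 cells.

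Of the 19 hnRNP genes, 18 reached the detection level in at least 7 cells, beside 51.7% of all rows. In every cell 8 did so, beside 15.8% of all rows. Hnrnpa2b1, whose protein sorts and transports mRNAs, lies at chr6:51460932-51469894 on the minus strand and ran from 3.35 in cell 7 to 9.38 in cell 8 with a median of 7.14. Hnrnpk, which binds cytosine-rich RNA, ran from 2.88 in cell 3 to 8.48 in cell 11 with a median of 6.72. Hnrnph1, which binds runs of guanine, ran from 2.31 in cell 7 to 9.88 in cell 2 with a median of 6.03. Hnrnpl, which binds repeats of cytosine and adenine, fell into high and low cells: cells 7, 8, 9 and 14 lay between 1.63 and 3.85, and the other 10 between 5.69 and 8.40. Hnrnpa0 was the single family member detected in fewer than 7 cells.

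Related hnRNP genes differed in the same direction in most cells. Hnrnph1 exceeded Hnrnph2 in 12 cells by a median of 3.91, and Hnrnpl exceeded Hnrnpll in 13 by a median of 4.56. Hnrnpd was lower than Hnrnpdl in 12 cells, with a median difference (Hnrnpd minus Hnrnpdl) of -4.29. Hnrnpa2b1 exceeded Hnrnpa3 in 12 cells by a median of 1.88. Hnrnpa1 was lower than Hnrnpa3 in all 14 cells, with a median difference (Hnrnpa1 minus Hnrnpa3) of -1.40, and its own median was 3.08. The annotation holds processed pseudogenes named Hnrnpa1l2-ps and Hnrnpa1l2-ps2, which had no row. How reads matching several loci were assigned is unstated, so the level of Hnrnpa1 is uncertain. In total 19 related pairs were listed and 14 had both rows. With the division by length undone, the median of Hnrnpa2b1 minus Hnrnpa3 was 0.33 and Hnrnpa2b1 was the higher in 9 cells, and that of Hnrnpa1 minus Hnrnpa3 was -2.84. The medians of all 14 pairs kept their sign with the division undone. Of the pairs not yet named, Rbm5 exceeded Rbm6 in 12 cells and Rbm10 in 13, Srsf1 exceeded Srsf9 in 9, and Rbm26 exceeded Rbm27 in 6 and was lower in 8 (3 and 11 with the division undone).

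Within a cell, hnRNP genes averaged lower than SR protein genes. The mean over the 19 hnRNP genes minus the mean over the 9 SR protein genes had a median of -0.85 (SD 0.71 over 14 cells), and it was below 0 in 11 cells and above 0 in cells 1, 9 and 10. Cell 8 had the widest gap, with a mean of 3.78 over hnRNP genes and 5.99 over SR protein genes. Snrp genes averaged higher than SF3 genes in all 14 cells, by a median of 2.22 (SD 0.83). The gap ran from 0.77 in cell 9 to 4.16 in cell 10, and undoing the division by length reduced its median to 1.14. The Snrp mean was highest in cell 4 (6.86), where the neutrophil marker mean was lowest (3.17), and lowest in cell 11 (4.29), where that mean was 8.93. Over the 14 cells the Spearman correlation of the Snrp mean with the neutrophil marker mean was -0.78, the strongest of 20 such values computed over the same cells in 1 normalization, and the part of neutrophil transcripts in it was not tested.

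**Figure D4:**
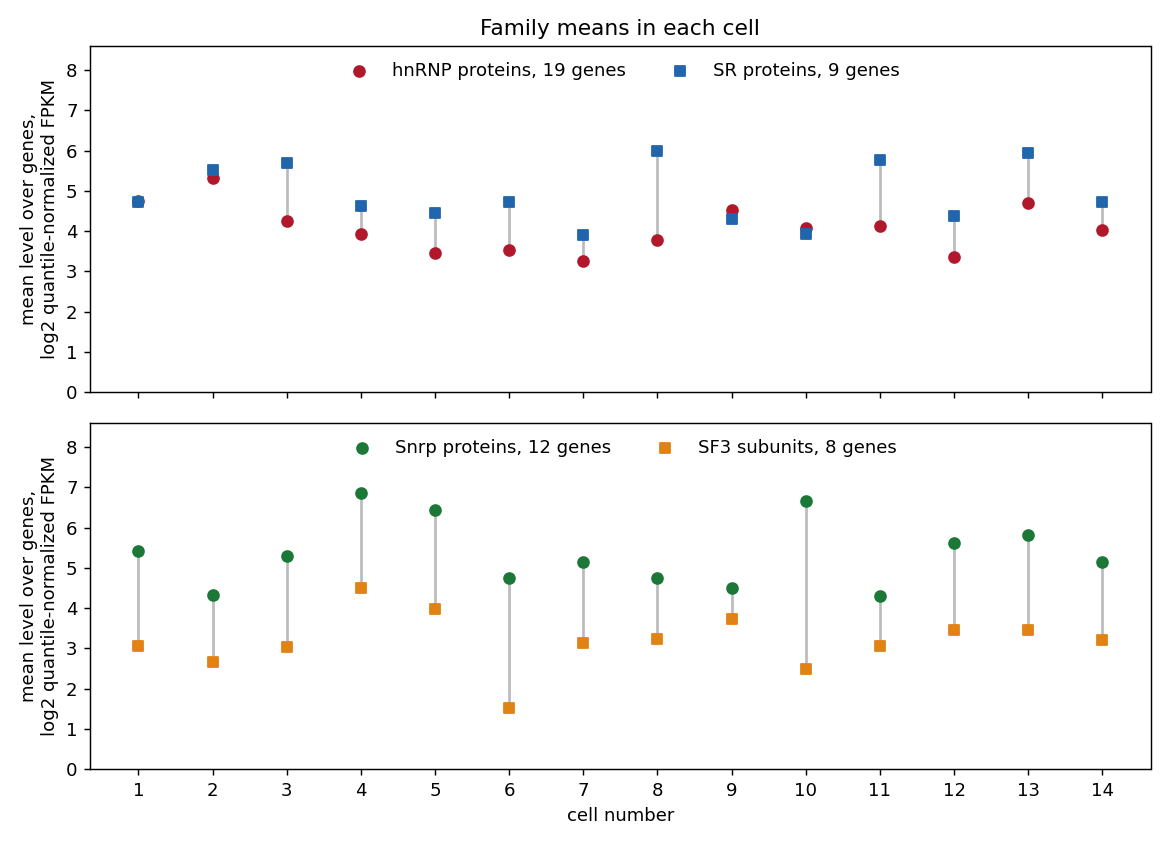
Mean level over the genes of a family in each cell (vertical axis, log2 quantile-normalized FPKM; horizontal axis, cell number), for hnRNP and SR protein genes (top) and for Snrp and SF3 genes (bottom); grey lines join the 2 means of a cell. Snrp genes lie above SF3 genes in all 14 cells, and hnRNP genes lie above SR protein genes in cells 1, 9 and 10.

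The mean over all 95 members ran from 2.95 in cell 6 to 3.98 in cell 2 with a median of 3.53 and an SD of 0.26. Normalization set the mean over all rows at 2.37 in every cell, and a mean over 95 rows averages out single genes. The narrow spread therefore does not show that the members are stable between cells. The blood-marker-rich cells 11 and 14 had 3.61 and 3.58, inside the range of the other cells. Between 60 members (cell 8) and 75 (cell 2) were detected per cell, and a median of 10.5% of members was at 0, beside 18.7% of all rows. Cell 2 was the highest cell for 20 members (21.1%), beside 8.72% of all rows, and cell 3 for 14 (14.7%), beside 9.08%. Cell 5 was the highest for 1 member, beside 4.75% of rows. The members with their highest level in cell 2 included Srsf2, Hnrnph1, U2af1, U2af2, Snrpa and Prpf38b.

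**Figure D5:**
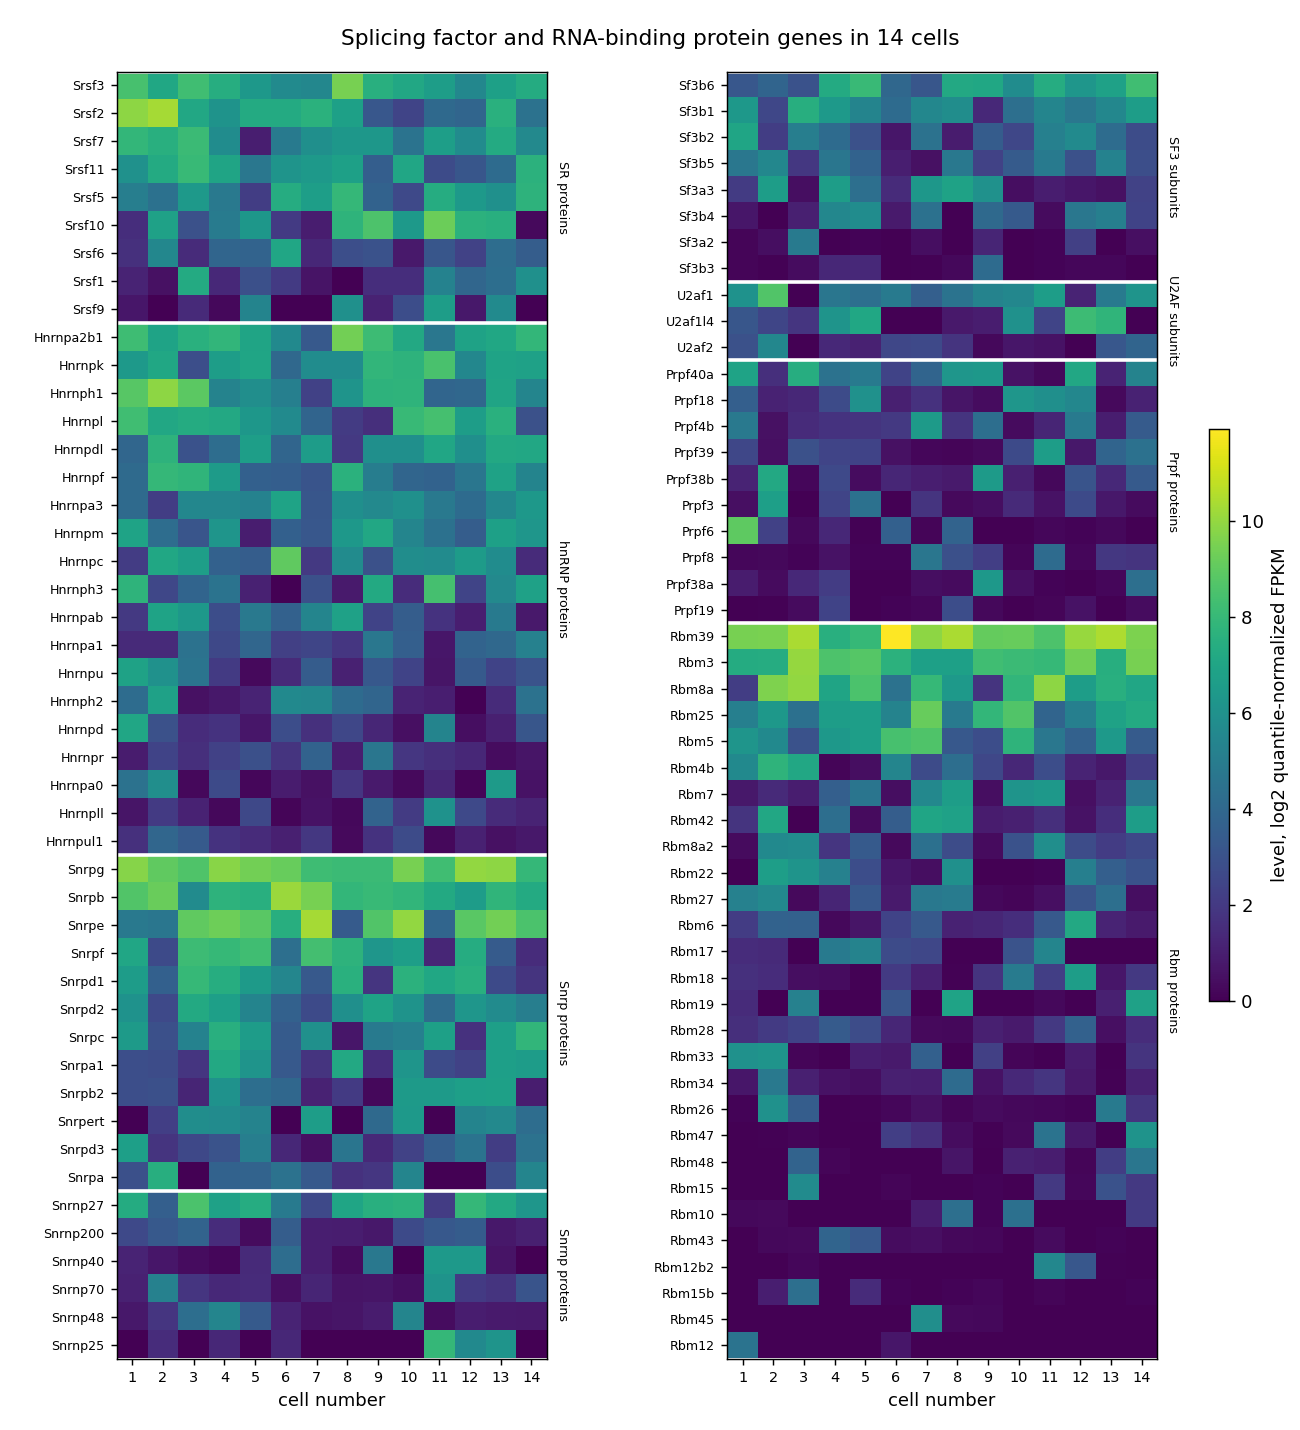
Levels of the 95 members (rows, grouped by family and ordered by mean) in cells 1 to 14 (columns); colour gives log2 quantile-normalized FPKM from 0 (dark) to 11.92 (yellow). Rbm39, Rbm3, Snrpg and Snrpb are high in every cell, and most Prpf and many Rbm genes are high in a few cells only.

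Of the 28 Rbm genes, 16 were detected in at least 7 cells, near the 51.7% of all rows, and 5 in every cell, near the 15.8% of all rows. Several Rbm genes differed widely between cells. Rbm19, a factor of ribosomal RNA processing, was at 0 in 7 cells and reached 6.92 in cell 8, 6.84 in cell 14 and 5.25 in cell 3. Rbm22, a protein of the activated spliceosome, was between 5.13 and 6.70 in cells 2, 3, 4, 8 and 12. It was between 2.80 and 3.62 in cells 5, 13 and 14 and at 0 in cells 1, 9 and 10. Rbm7, a subunit of a complex that hands nuclear RNA to the exosome, was between 5.57 and 6.62 in cells 7, 8, 10 and 11 with a median of 2.52. Its level was 4.7 in cell 14, 4.6 in cell 5 and 3.6 in cell 4. Rbm45 was detected in cell 7 alone, at 5.91, and Rbm12 in cell 1 alone, at 4.52. Rbm12b2 was detected in cells 11 (5.54) and 12 (3.23), and Rbm43 in cells 4 (3.84) and 5 (3.33). The exons of Rbm12 share 2120 bases with the gene model Gm28036 and 239 bases with Cpne1, both on the same strand, and those of Rbm12b2 share 289 bases with Tmem67 on the opposite strand, so the levels of Rbm12 and Rbm12b2 are uncertain. Snrnp40, a protein of the U5 particle, had a median of 0.85 and was higher than 4 in cells 12 (6.45), 11 (6.38), 9 (4.79) and 6 (4.25).

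Rbm47 was highest in the 2 cells with the most leukocyte markers. This gene, whose protein assists editing of the apolipoprotein B mRNA, was highest in cells 14 (6.11) and 11 (4.56). It followed in cells 6 (2.23) and 7 (1.64) and was below 1 in the other 10. Among these was cell 8, with Rbm47 at 0.39, although its leukocyte marker mean of 6.95 came next after cells 14 and 11. The exons of Rbm47 share 161 bases with the gene model Gm43323 on the same strand, so the level of Rbm47 is uncertain. The leukocyte antigen gene Ptprc stood at 6.51 in cell 14 and at 8.31 in cell 11, whereas the others lay between 0.04 and 3.27. Macrophage markers were mixed in cell 11: Cd68 (0.37) and Ctss (2.08) were low, whereas Lyz2 (10.7) and Cd14 (7.90) were high. Cell 14 held Cd68 at 8.65 and Ctss at 9.06. Its macrophage marker mean was 10.71, against 5.26 for cell 11. The part of blood cell RNA in the level of Rbm47 was not tested.

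Which cells had a row at 0 also split the cells. Clustered by presence over 5073 rows, cells 3, 4, 11, 12 and 13 formed a smaller set and the other 9 a larger one, and these sets are not groups of the labels. Of the 95 members, 33 were at 0 in some cell. Over these 33, which were among the clustered rows where above 0 in 2 or more cells, the correlation of presence between cells was 0.27 in the median for cells of the same set and 0.05 for cells of different sets, and these values describe the clustering. The member means of the 2 sets overlapped, with 3.49 to 3.71 in the smaller and 2.95 to 3.98 in the larger. What separates the sets was not tested.

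Pairs of members moved together about as rarely as pairs of all rows detected in every cell. Among the 28 members detected in all 14 cells there were 378 pairs, with a median Spearman correlation over cells of 0.01, beside 0.01 for the 1506 rows detected in all cells. A correlation of 0.7 or more was reached by 2 pairs (0.529%), beside 0.803% of the pairs of all such rows. The closest pair was Srsf3 and Hnrnpa2b1, with a Spearman correlation of 0.91 and a Pearson correlation of 0.78. Cell 8 was the highest for both genes, at 9.48 for Srsf3 and 9.38 for Hnrnpa2b1, and cells 6, 7, 11 and 12 were among the lowest 5 for both. The next pair was Snrnp27 and Snrpd2, with a Spearman correlation of 0.82: both were low in cells 2, 7 and 11, where Snrnp27 was at 3.62, 2.65 and 2.10 and Snrpd2 at 2.63, 2.68 and 4.13. The most opposed pair was Rbm3 and Snrpb, at -0.78. These pairs were chosen from the 378 by their correlation and are a description.

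The promoters of these pairs are shown because their genes moved together. Each window holds 250 bases before and 50 after the RefSeq start (GRCm38.p6), in the direction of the gene. Srsf3 is at chr17:29032410-29032709 on the plus strand, Hnrnpa2b1 at chr6:51469845-51470144 on the minus strand, Snrnp27 at chr6:86684442-86684741 on the minus strand and Snrpd2 at chr7:19149588-19149887 on the plus strand. Capitals mark matches on either strand to 6 motifs searched: an ETS core (CCGGAAG), NRF1 (GCGCNTGCG), a Sp GC box (GGGCGG), a YY1 core (AAGATGGCG), a CCAAT box (CCAAT) and a TATA box (TATAAA).
Srsf3 promoter: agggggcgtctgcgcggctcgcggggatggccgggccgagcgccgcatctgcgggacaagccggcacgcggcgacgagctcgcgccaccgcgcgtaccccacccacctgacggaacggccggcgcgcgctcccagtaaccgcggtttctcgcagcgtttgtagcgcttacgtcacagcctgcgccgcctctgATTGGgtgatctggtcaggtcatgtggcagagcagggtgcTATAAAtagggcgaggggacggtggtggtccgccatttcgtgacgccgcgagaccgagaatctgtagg
Hnrnpa2b1 promoter: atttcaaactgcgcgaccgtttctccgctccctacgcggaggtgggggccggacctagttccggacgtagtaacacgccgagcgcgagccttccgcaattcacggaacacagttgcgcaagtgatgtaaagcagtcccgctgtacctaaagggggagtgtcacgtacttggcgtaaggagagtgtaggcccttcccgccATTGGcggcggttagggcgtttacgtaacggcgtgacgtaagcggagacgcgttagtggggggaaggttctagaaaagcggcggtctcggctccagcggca
Snrnp27 promoter: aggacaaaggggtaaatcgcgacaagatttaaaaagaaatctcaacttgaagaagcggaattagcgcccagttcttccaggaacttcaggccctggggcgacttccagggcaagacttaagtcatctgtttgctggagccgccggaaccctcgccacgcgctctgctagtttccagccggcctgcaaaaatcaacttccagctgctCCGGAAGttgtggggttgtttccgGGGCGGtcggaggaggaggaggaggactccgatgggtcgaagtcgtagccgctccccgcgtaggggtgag
Snrpd2 promoter: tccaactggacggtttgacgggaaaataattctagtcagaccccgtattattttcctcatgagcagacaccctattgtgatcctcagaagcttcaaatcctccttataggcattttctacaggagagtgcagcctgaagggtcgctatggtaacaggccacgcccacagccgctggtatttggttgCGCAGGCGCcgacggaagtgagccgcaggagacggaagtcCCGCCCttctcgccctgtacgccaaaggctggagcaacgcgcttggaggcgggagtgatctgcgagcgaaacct

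The windows of the first pair each held a CCAAT box, read on the opposite strand, from base 193 in Srsf3 and from base 200 in Hnrnpa2b1. Srsf3 also held a TATA box from base 233. Snrnp27 held an ETS core from base 207 and a GC box from base 231, and Snrpd2 an NRF1 match from base 187 and a GC box from base 227, so that the second pair shared the GC box. RefSeq gave 98 windows for 79 of the members. An ETS core was found in 29.6% of the members' windows, beside 8.86% of the 32851 windows of all genes, an NRF1 match in 25.5%, beside 6.31%, and a GC box in 64.3%, beside 35.7%. A CCAAT box was found in 44.9% of the members' windows, beside 37.4%, a YY1 core in 2.04%, beside 1.4%, and a TATA box in 9.18%, beside 13.6%. The windows of all genes include non-coding and predicted genes, and a match of letters is not evidence of binding.

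Splicing genes outside the symbol rule were also counted. Of 102 such genes listed from their function, 96 had a row, 2 of them under an older symbol. Of the 96, 70 (72.9%) reached the detection level in at least 7 cells, beside 51.7% of all rows, and 25 (26%) did so in every cell, beside 15.8% of all rows. Clk1, the gene of a kinase that phosphorylates SR proteins, had the highest mean, with 3.29 in cell 4, a median of 9.08 and 10.91 in cell 2. Cell 4 also had the lowest immediate early gene mean, at 2.64, and that relation was not tested. Tra2b, an SR-related activator, had a median of 7.20 and the speckle protein gene Srrm2 one of 7.81, and both were detected in every cell. The genes Lsm1 to Lsm8, whose proteins form the ring of U6 and a cytoplasmic ring, were each detected in 10 to 14 cells. Of the other 4 listed Lsm genes with a row, Lsm14a was detected in 12 cells, Lsm10 and Lsm12 in 6 each and Lsm14b in 1. Of the partners of Rbm8a in the exon junction complex, Magoh had a median of 6.59 and was detected in every cell, Eif4a3 had one of 5.91 and was detected in 12, whereas Casc3 passed the detection level in 4 cells, with 10.14 in cell 1. All 4 core genes were detected together in cells 1, 10 and 14.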

How the data were processed

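The authors deposited 1 table for the 14 cells. The submitters' processing notes name TopHat2, Cufflinks and GRCm38, without versions. The values deposited by the authors were taken as log2(FPKM + 1) after quantile normalization. No label or header states this, and it was inferred: all columns share a maximum of 14.58, and over 7304 ranks the cells differed by at most 0.0246. The lowest row maximum was 1.61, and the sources used here state no filter on rows. Each of the 14 columns was matched to a cell by title. No counts are given, so depth is unknown and no detection limit can be stated.

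Members were found by symbol. A gene was called detected at a log2 value of 1 or more, and levels were summarised per cell and per gene with pandas 2.3.3. Listed symbols were also matched by their older RefSeq symbols. Lengths are the longest transcript in GENCODE M21 basic, and the division by length was undone with them. The lengths behind the deposited values are unknown, so undoing the division is approximate. The members, lists and comparisons were chosen with earlier results of these data known. Genes named were the 15 highest means, the 10 largest SDs in 5 to 9 cells, the 6 smallest SDs in all 14 cells, the related pairs and members detected in under 3 cells; members of complexes, Rbm47 and the closest pairs were chosen after their values were seen. Correlation and detection counts were tested on simulated data. Alternatives were other detection levels, cells 11 and 14 left out, a pseudocount of 10, the length division undone, and, added after seeing the data, Snrpert and Rbm8a2 left out and the length division undone for the related pairs. The sequences of Snrpe and Snrpert are not reported here.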

Additional observations from a re-analysis of the deposited data

How the results depend on the processing

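No paired analysis was possible because the labels give 1 group of cells. At an FPKM of 10 there were 41 members in at least 7 cells, against 72, and between 52 and 91 under the other alternatives. With cells 11 and 14 left out, the cut-off was at least 6 of 12 cells, and the count was 74. In every cell there were 62 members above 0, 14 members at an FPKM of 5 and 6 at an FPKM of 10, against 28. The median of member means was 4.31 with the length division undone (2.66 over all rows) and 4.39 with a pseudocount of 10 (3.86 over all rows), against 3.05 (1.70 over all rows). The Snrp minus SF3 difference was 1.14 with the length division undone, against 2.22, and it was positive in every alternative tried. The hnRNP minus SR protein difference stayed below 0, from -0.84 to -0.55 against -0.85. The median SD of members was 1.10 with a pseudocount of 10 (0.87 over all rows), against 1.90. Leaving out cells 11 and 14 moved none of the 6 results beyond the spread between cells or 1.5 times a count. The depth of the libraries is unknown, so a value at 0 does not show that a gene is silent.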
